A study of Mus musculus with 12 samples.

Results

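The 9 genes described here belong to the tricarboxylic acid (TCA) cycle and were measured in mouse kidney tubular cells given TGFβ, an inhibitor of the enzyme NNMT, or both. They encode citrate synthase (Cs), isocitrate dehydrogenases (Idh2, Idh3a and Idh3g), the first enzyme of the alpha-ketoglutarate dehydrogenase complex (Ogdh), succinyl-CoA ligase subunits (Suclg1 and Suclg2), fumarate hydratase (Fh1) and mitochondrial malate dehydrogenase (Mdh2). Members were the rows of the count table whose mouse Ensembl identifiers matched these symbols, 9 of 55487 genes in the table. All 9 had enough counts to be among the 13581 genes tested. Their identifiers are ENSMUSG00000005683 for Cs, ENSMUSG00000030541 for Idh2, ENSMUSG00000032279 for Idh3a, ENSMUSG00000002010 for Idh3g, ENSMUSG00000020456 for Ogdh, ENSMUSG00000052738 for Suclg1, ENSMUSG00000061838 for Suclg2, ENSMUSG00000026526 for Fh1 and ENSMUSG00000019179 for Mdh2.

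The cells were im-TEC, a conditionally immortalized tubular epithelial line that carries the SV40 large T antigen. All groups came from cells kept at 33 °C with interferon-gamma and then moved to 37 °C without it for 7 days before seeding, a step that lowers large T activity. There were 4 groups of 3 libraries, all collected at 48 h: control, 10 ng/mL of TGFβ, 50 µM of the NNMT inhibitor 5-amino-1-methylquinolinium (NNMTi), and a combined group given both. TGFβ is a cytokine that drives epithelial cells towards a fibrotic, matrix-producing state, and NNMT transfers methyl groups to nicotinamide. Polyadenylated RNA was read from the 3′ end of each transcript. Nothing states that the replicates were separate cultures, so each p-value reflects the spread between these libraries alone, which may be technical.

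The TCA cycle runs in the mitochondrial matrix. It joins acetyl-CoA to oxaloacetate to make citrate, oxidises the carbon stepwise to carbon dioxide, and passes the electrons to NADH and FADH2 for the respiratory chain. Proximal tubule cells are rich in mitochondria and rely on this route for the energy of reabsorption. All enzymes described here are encoded in the nucleus and imported into mitochondria.

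Totals ranged from 2584117 to 11866903 counts in genes, and the shallowest was TGFβ replicate 3. The biological coefficient of variation was 0.227 within the TGFβ group, against 0.0657 in control, 0.0885 with NNMTi and 0.111 in the combined group. In the TGFβ group, replicate 2 stood apart. The chi-square per degree of freedom between its counts and those of replicates 1 and 3 was 40.8 and 31.6. Between replicates 1 and 3 it was 6.24. All libraries were fitted in 1 model, and without TGFβ replicate 2 the genes called for NNMTi against control went from 1123 to 2179. Of 12 tubular epithelial markers, Epcam and Slc34a1 were at 0 in all 12 libraries. Levels are in CPM, counts per 1e6 of library size, where library size is counted over the tested genes and scaled by edgeR's TMM factor. The summed level of the 12 tubular epithelial markers was 2763 to 2899 CPM in control and 3019 to 3208 with NNMTi. It was 2331 to 2666 with TGFβ and 2185 to 2379 in the combined group. Cdh6 was the highest of them over the 12 libraries, with a mean of 1385 CPM. The sum hides moves both ways. With TGFβ, 4 of 9 tested markers fell and 3 rose at an edgeR adjusted p below 0.05, with log2 changes from -5.30 to 2.35. Of all tested genes, 17.1% fell and 19.4% rose. The marker changes ran from -6.46 to 1.64 in the combined group against control. Of 6 fibroblast markers, Pdgfra, Lum and Thy1 were at 0 in all libraries. Their sum was 3.63 to 7.37 CPM in control, 3.19 to 5.21 with NNMTi, 149 to 187 with TGFβ and 35.4 to 46.6 in the combined group, most of it Col1a1. Of 5 endothelial markers Cdh5 and Kdr were at 0 throughout, and the sum was 5.08 to 6.70 CPM in control, 3.96 to 4.91 with NNMTi, 1.148 to 2.69 with TGFβ and 1.39 to 3.43 in the combined group, with Egfl7 the highest of them (log2 -1.61 with TGFβ, edgeR adjusted p = 0.00159). Of 5 immune markers Adgre1 was at 0 throughout, and the sums ran from 3.52 to 8.19 CPM over all libraries. Of 3 podocyte markers Nphs1 was at 0 throughout, while Synpo and Podxl gave sums of 334 to 361 CPM in control, 298 to 311 with NNMTi, 345 to 442 with TGFβ and 333 to 363 in the combined group. With TGFβ, Synpo rose (log2 0.58, edgeR adjusted p = 0.00253) and Podxl fell (log2 -0.75, 0.00141). Reads in no feature made up 25.9 ± 0.255% in control, 25.7 ± 1.41% with NNMTi, 21.8 ± 0.883% with TGFβ and 22.1 ± 0.912% in the combined group. The part of these markers and of this share in the results below was not tested. In these bulk samples, fewer cells of a type and less RNA per cell cannot be told apart.

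Most of the cycle genes were lower with TGFβ. Of the 9, 6 fell and 0 rose at a Benjamini-Hochberg adjusted p below 0.05 in edgeR's quasi-likelihood test, and the falls ran from 1.32-fold for Fh1 to 2.23-fold for Suclg2. Of all tested genes, 36.5% were called, 19.4% up and 17.1% down. All 9 means were lower with TGFβ. In 7 of the 9, every TGFβ library lay below every control library, which held for 22.4% of all tested genes. The median log2 change of the 9 was -0.44, beside 0.02 over all tested genes. CPM values are scaled by library size and not corrected for how well each gene's transcripts are counted. They are therefore compared between groups for 1 gene and not between genes. Sums, shares and ratios of genes below describe counts, not relative numbers of transcripts.

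**Figure D1:**
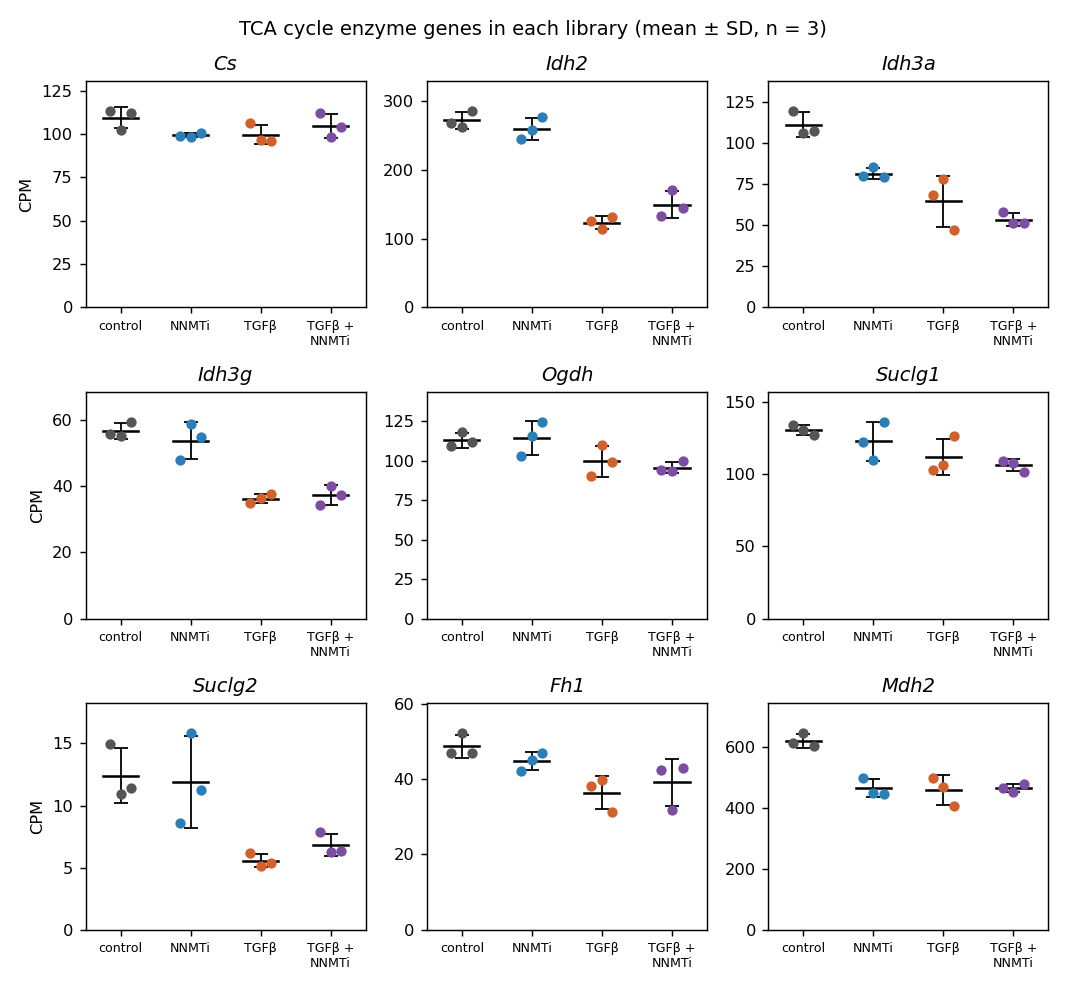
Level of each of the 9 genes in CPM (y axis from 0) in the 12 libraries, by group (x axis). Points are libraries, and the bars are the mean and SD of 3. Idh2, Idh3g and Suclg2 are low in both groups given TGFβ, while Mdh2 is below control in all 3 treated groups.

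At the entry of the cycle, Cs, which condenses acetyl-CoA with oxaloacetate, was 109 ± 6.05 CPM in control and 99.7 ± 5.70 CPM with TGFβ (SD, n = 3 here and below). The ranges overlapped, and the log2 change of -0.13 ± 0.09 (SE here and below) had an edgeR adjusted p of 0.310.

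Among the isocitrate dehydrogenase genes, Idh2, Idh3a and Idh3g fell, and Idh3b did not pass the test. Idh2 makes alpha-ketoglutarate with NADP+ as the acceptor and so supplies mitochondrial NADPH. It was 268, 262 and 286 CPM in the control libraries and 125, 114 and 131 CPM with TGFβ. The groups were far apart: the highest TGFβ library was under the lowest control library by more than the whole spread of either group. The fall was 2.21-fold, a log2 change of -1.15 ± 0.11 (edgeR adjusted p = 1.02e-07).

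Idh3a and Idh3g encode the catalytic alpha and the regulatory gamma subunit of the NAD+-dependent enzyme, the rate-setting isocitrate dehydrogenase of the cycle. Idh3a was 120, 106 and 108 CPM in control and 68.2, 78.1 and 47.4 CPM with TGFβ. The TGFβ libraries were all lower but scattered, with replicate 3 lowest. The fall was 1.69-fold (log2 -0.75 ± 0.13, edgeR adjusted p = 0.000226). Idh3g was 55.6, 55.0 and 59.4 CPM in control and 34.8, 36.2 and 37.5 CPM with TGFβ. Both groups were tight and did not overlap, and the fall was 1.57-fold (log2 -0.65 ± 0.12, edgeR adjusted p = 0.000243). Idh3b, the beta subunit, did not pass the test, at 72.1 ± 8.03 CPM in control and 66.7 ± 8.22 CPM with TGFβ (log2 -0.12, edgeR adjusted p = 0.496).

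The next steps moved less evenly. Ogdh, which decarboxylates alpha-ketoglutarate, was 113 ± 4.72 CPM in control and 99.6 ± 9.80 CPM with TGFβ. Its ranges overlapped, and the log2 change of -0.18 ± 0.10 did not pass (edgeR adjusted p = 0.190). Without TGFβ replicate 2 the adjusted p was 0.0311. Suclg1, the alpha subunit shared by both succinyl-CoA ligases, was 131 ± 3.63 CPM in control and 112 ± 12.6 CPM with TGFβ. Every TGFβ library was below every control library, but the log2 change of -0.23 ± 0.11 did not pass (edgeR adjusted p = 0.0928), and without TGFβ replicate 3 it did (0.0212).

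Suclg2, the beta subunit of the GTP-forming succinyl-CoA ligase, was the least counted of the 9, with 90 to 134 counts in control libraries and 14 to 58 with TGFβ. Its level was 14.95, 10.9 and 11.4 CPM in control and 6.14, 5.14 and 5.36 CPM with TGFβ. The TGFβ libraries were close to each other and all below control. The fall was 2.23-fold (log2 -1.15 ± 0.25, edgeR adjusted p = 0.00117). Sucla2, the beta subunit of the ATP-forming ligase, was 57.3 ± 3.49 CPM in control and 55.9 ± 5.70 CPM with TGFβ (log2 -0.05, edgeR adjusted p = 0.764), and its log2 change was above 0 without TGFβ replicate 1 (0.0026) and after thinning all libraries to the shallowest (0.04).

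Fh1, which hydrates fumarate to malate, was 47.0, 52.3 and 47.1 CPM in control and 38.1, 39.7 and 31.4 CPM with TGFβ. The groups did not overlap, and the fall was 1.32-fold (log2 -0.40 ± 0.13, edgeR adjusted p = 0.0251). This call was lost without control replicate 2 (adjusted p = 0.0983) or without TGFβ replicate 3 (0.0696), and with all libraries thinned to the shallowest (0.0690). Mdh2, which regenerates oxaloacetate, was 616, 648 and 603 CPM in control and 501, 471 and 406 CPM with TGFβ. All TGFβ libraries were lower, and the fall was 1.352-fold (log2 -0.44 ± 0.09, edgeR adjusted p = 0.00135). Cs, Idh2 and Fh1 each overlap another gene in the GENCODE annotation (the snoRNA gene Gm23182, Gm45203 and Kmo). None of these covers the last annotated base of the cycle gene. Whether they reach into the stretch before it, where 3′ reads fall, was not examined.

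The other subunits of the cycle enzymes gave a like count. Of 8 tested, 5 fell and 0 rose with TGFβ (17.1% and 19.4% of all tested genes), with a median log2 change of -0.47. The number that fell was 3 without control replicate 1, without control replicate 3 or without TGFβ replicate 2, and 2 thinned or in a fit of the compared groups only. Among the subunits of succinate dehydrogenase, 3 fell: the flavoprotein Sdha by 0.63 on the log2 scale (edgeR adjusted p = 5.5e-05), the iron-sulphur protein Sdhb by 0.56 (0.00266) and the membrane anchor Sdhc by 0.63 (0.0160). Sdhc was not called in a fit of the compared groups only (0.0604) or with all libraries thinned to the shallowest (0.0601). The second anchor, Sdhd, was 56.8, 14.1 and 53.2 CPM with TGFβ, with replicate 2 far below the others, and did not pass (log2 -0.88 ± 0.50, edgeR adjusted p = 0.206).

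Dlst and Dld, the partners of Ogdh in its complex, fell by 0.34 (edgeR adjusted p = 0.0327) and 0.37 (0.0359) on the log2 scale. Dlst was not called without any 1 of control replicates 1, 2 and 3 (0.0531, 0.0604 and 0.132) or TGFβ replicates 1 and 2 (0.0637 and 0.0780). Dld was not called without control replicate 1 or 3 (0.165 and 0.0948) or TGFβ replicate 2 or 3 (0.129 and 0.0561). In the fit of all libraries, 11 of 17 cycle subunits fell and 0 rose, the 9 members included.

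**Figure D2:**
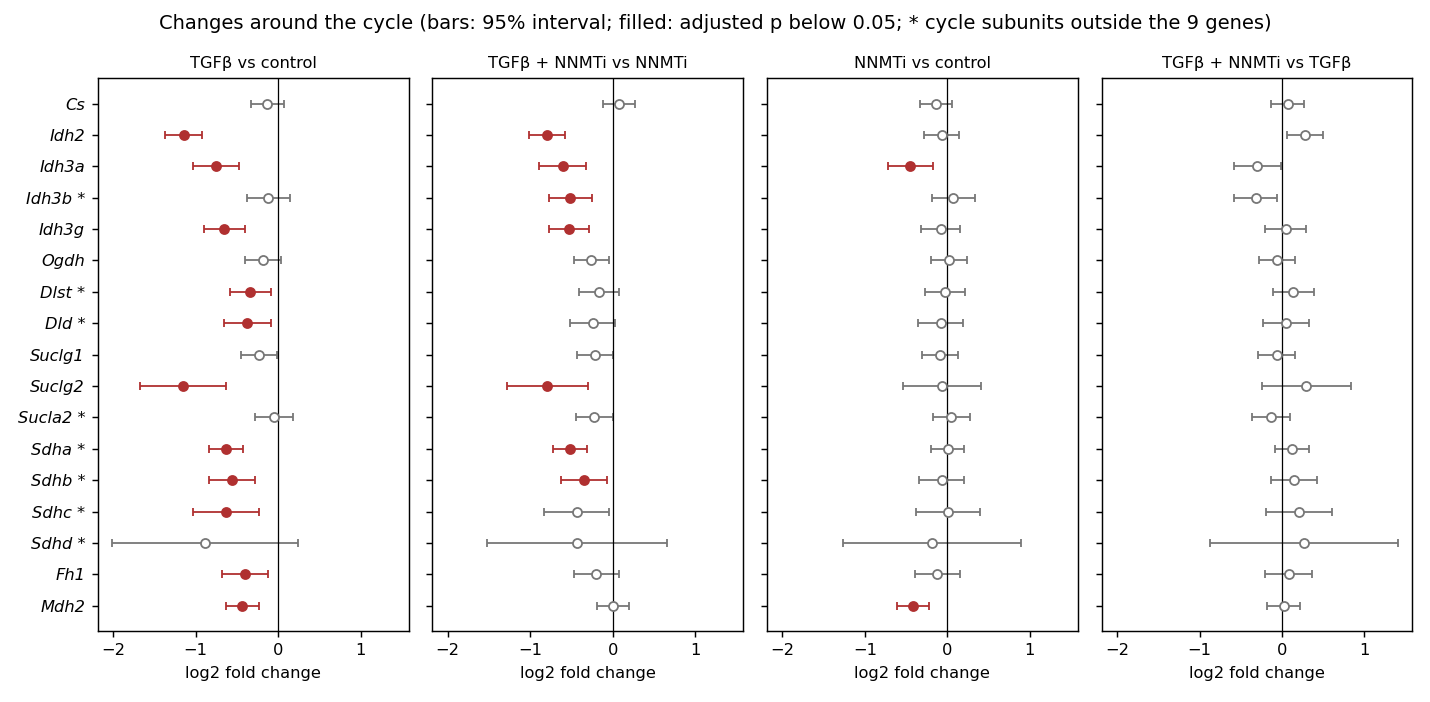
Log2 fold change (x axis) of 17 cycle subunits, listed in the order of the cycle (y axis), in 4 comparisons. Points are edgeR estimates, bars are 95% intervals, filled points have an adjusted p below 0.05, and stars mark the 8 subunits outside the described genes. Filled points sit left of 0 in the comparisons of TGFβ (11 of 17 without the inhibitor), and the inhibitor alone has 2.

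The promoters of Idh2, Idh3g and Suclg2 are shown because these genes fell with TGFβ both without and, as described further on, with the inhibitor, as did Idh3a. They come from RefSeq (GRCm38.p6), where 8 of the 9 members matched. Each run is the 250 bases before the annotated start, written 5′ to 3′ on the gene's strand. The windows are chr7:80115351-80115600 on the minus strand for Idh2, chrX:73786898-73787147 on the minus strand for Idh3g and chr6:95718847-95719096 on the minus strand for Suclg2. Capitals mark the only motif match in them, the ETS core CCGGAAG.
Idh2: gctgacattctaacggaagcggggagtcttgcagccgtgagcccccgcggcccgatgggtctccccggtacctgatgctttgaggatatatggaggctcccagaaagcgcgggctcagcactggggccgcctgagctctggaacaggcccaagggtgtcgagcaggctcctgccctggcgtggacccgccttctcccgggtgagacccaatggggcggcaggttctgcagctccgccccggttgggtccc
Idh3g: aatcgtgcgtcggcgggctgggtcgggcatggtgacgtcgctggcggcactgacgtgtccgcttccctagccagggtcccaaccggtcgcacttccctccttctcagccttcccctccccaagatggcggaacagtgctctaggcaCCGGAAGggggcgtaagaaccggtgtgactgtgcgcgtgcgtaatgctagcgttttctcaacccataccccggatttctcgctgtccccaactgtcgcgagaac
Suclg2: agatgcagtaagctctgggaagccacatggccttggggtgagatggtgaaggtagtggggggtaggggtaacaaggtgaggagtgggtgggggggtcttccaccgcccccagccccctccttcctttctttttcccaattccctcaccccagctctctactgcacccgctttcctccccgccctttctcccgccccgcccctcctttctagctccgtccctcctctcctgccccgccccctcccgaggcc

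The windows of 32851 promoters, of 27025 genes, were searched for 4 motifs on both strands, and a gene was counted once if any of its promoters held the motif. Of the other cycle subunits, 7 matched. The ERR core AAGGTCA, bound by estrogen-related receptors, was in 4.70% of all genes (4.08% of promoters), 0 of the 8 members and 0 of the 7 other subunits. The NRF1 motif (GCGCN followed by TGCGC) was in 4.23% of genes (3.74% of promoters), 0 of 8 members and 3 of 7 other subunits, Sucla2, Sdha and Sdhd. The ETS core CCGGAAG, bound by factors such as GABPA, was in 7.83% of genes (6.91% of promoters), 1 of 8 members, Idh3g, at 104 bases before the start, and 1 of 7 other subunits, Sdhd. The E-box CACGTG was in 6.86% of genes (6.02% of promoters), 1 of 8 members, Ogdh, and 0 of 7 other subunits. A match is a description of the letters in this window only.

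Among regulators of mitochondrial genes, 4 of 9 tested fell and 1 rose with TGFβ, beside 17.1% down and 19.4% up of all tested genes. Ppargc1a, the coactivator known for driving mitochondrial biogenesis, was 252, 247 and 270 CPM in control and 15.4, 8.94 and 11.9 CPM with TGFβ. It was low in every library given TGFβ, at 7.29 to 13.3 CPM in the combined group. Esrra, an estrogen-related receptor that works with it, fell 1.60-fold from 45.4 ± 3.08 to 28.7 ± 3.12 CPM (edgeR adjusted p = 0.000821). The mitochondrial deacetylase gene Sirt3 fell by 1.33 on the log2 scale (3.77e-05), and Hif1a by 0.54 (0.00573).

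Gabpa rose by a log2 change of 0.48 (edgeR adjusted p = 0.00839), a call lost without control replicate 2 (0.0550). Nrf1 had a log2 change of -0.01 (0.978), and values for Ppargc1b (-0.38, 0.453) and Myc (-0.34, 0.432) did not pass. No link between any regulator and the cycle genes was tested.

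Genes that feed the cycle are set here beside the 36.5% of all tested genes called with TGFβ, 17.1% down and 19.4% up. Of 12 tested genes of pyruvate entry, 6 fell and 1 rose. Pdk1 and Pdk2, kinases that switch off pyruvate dehydrogenase, fell 4.43-fold and 5.38-fold (edgeR adjusted p = 1.01e-08 and 1.72e-08). Pdp1, the phosphatase that switches it on, fell 2.60-fold (8.38e-08). Mpc2, a subunit of the mitochondrial pyruvate carrier, fell 2.65-fold from 112 ± 12.2 to 41.6 ± 5.77 CPM (1.26e-07). Pdk1 and Pdk2 were thus lower together with Pdp1, which opposes them. Other kinase and phosphatase genes of this list are not described here.

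The list of cytosolic counterparts, which also holds the mitochondrial malic enzymes Me2 and Me3, went both ways, 5 down and 2 up of 8. Acly, which splits exported citrate to acetyl-CoA, rose 2.81-fold from 72.3 ± 5.35 to 202 ± 19.9 CPM (edgeR adjusted p = 5.44e-09). Mdh1 and Got1, cytosolic enzymes of the malate-aspartate shuttle, fell by 0.73 (1.5e-05) and 0.75 (7.72e-06) on the log2 scale. Of 6 tested carriers 3 fell, led by the aspartate-glutamate carrier Slc25a12 with a log2 change of -1.15 (6.1e-06). Of 6 genes of glutamine entry, 2 fell and 0 rose, a share called near the 36.5% of all tested genes called in either direction. Falls alone made up 17.1% of all tested genes. The 2 that fell were the glutamine transporter Slc1a5 (log2 -0.71, 4.84e-05) and the alanine transaminase Gpt2 (log2 -0.62, 0.00296).

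Some of these calls hung on 1 library. Idh1, the cytosolic NADP+ enzyme, fell by 0.49 on the log2 scale (edgeR adjusted p = 0.0367) and was not called without control replicate 1, 2 or 3 (0.0611, 0.1004 and 0.0815), TGFβ replicate 2 (0.111) or combined replicate 2 (0.0535). The dicarboxylate carrier Slc25a10 had a log2 change of -0.48 (0.0417) and was not called without control replicate 1, 2 or 3 (0.103, 0.104 and 0.0624) or TGFβ replicate 1 or 3 (0.135 and 0.0559). The oxoglutarate carrier Slc25a11 had -0.30 (0.0324) and was not called without control replicate 1 or 2 (0.117 and 0.0784) or TGFβ replicate 1 (0.141).

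With the inhibitor alone, 2 of the 9 cycle genes were called, Mdh2 and Idh3a, and both fell. Of all tested genes, 8.27% were called, 5.80% down and 2.47% up. The median log2 change was -0.09, beside 0.01 over all tested genes. In 4 of the 9 (Cs, Idh3a, Fh1 and Mdh2) every inhibitor library was below every control library, which held for 18.7% of tested genes.

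Mdh2 was 501, 449.9 and 448 CPM with NNMTi, against 616, 648 and 603 CPM in control. No inhibitor library came near the control range, and the fall was 1.33-fold (log2 -0.42 ± 0.09, edgeR adjusted p = 0.00947). It was not called without control replicate 2 (0.0638). Idh3a was 80.0, 85.4 and 79.2 CPM with NNMTi, against 120, 106 and 108 CPM in control. The groups did not overlap, and the fall was 1.36-fold (log2 -0.45 ± 0.13, edgeR adjusted p = 0.0423). Leaving out any 1 control or inhibitor library ended this call, with adjusted p of 0.188, 0.0987 and 0.0990 without control replicates 1, 2 and 3, and 0.105, 0.0741 and 0.108 without NNMTi replicates 1, 2 and 3.

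The other 7 genes did not pass with the inhibitor. Their log2 changes ran from -0.14 for Cs to 0.02 for Ogdh, with edgeR adjusted p of 0.434 to 0.953. Idh2 was 259 ± 16.2 CPM, Idh3g 53.7 ± 5.57 CPM and Fh1 44.8 ± 2.36 CPM. Suclg2 was spread over 8.59, 15.9 and 11.2 CPM, a range that spans that of control.

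Of the other 8 cycle subunits, 0 were called with the inhibitor by edgeR, DESeq2 or limma-voom with quality weights. None had an unadjusted edgeR p below 0.05. By edgeR 8.27% of all tested genes were called, so 0 of 8 says little about these subunits. In the lists around the cycle, Pdk1 rose 1.66-fold from 23.8 ± 1.21 to 39.5 ± 5.10 CPM (edgeR adjusted p = 0.00211). Got1 had a log2 change of -0.37 (0.0203) and was not called without control replicate 1 or 3 (0.0661 and 0.116) or NNMTi replicate 1 or 2 (0.0910 and 0.0706). The aspartate-glutamate carrier Slc25a13 had -0.49 (0.0360) and was not called without control replicate 1, 2 or 3 (0.0975, 0.140 and 0.0916) or NNMTi replicate 1 or 3 (0.0889 and 0.117). Ppargc1a was 189, 195 and 218 CPM with NNMTi, all below control, with a log2 change of -0.35 that did not pass (0.200). It passed without TGFβ replicate 2 (0.0139) or replicates 2 and 3 (0.00976), with no low-count filter (0.0425), in a fit of the compared groups only (9.49e-05) and with quality weights (0.000692). Slc25a13 was not called thinned to the shallowest library (0.121).

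The summed level of the 9 genes was 1478, 1485 and 1465 CPM in control and 1247, 1236 and 1278 CPM with NNMTi. It was 1072, 1057 and 981 CPM with TGFβ and 1057, 1053 and 1068 CPM in the combined group. Control stood above all others, NNMTi lay between, and the TGFβ and combined groups overlapped. Mdh2 made up 42.2 ± 1.296% of the sum in control, so this sum follows Mdh2 more than any other member.

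Mitochondrially encoded transcripts moved otherwise, at 7.61 ± 0.519% of counts in control, 11.8 ± 0.562% with NNMTi, 6.83 ± 1.33% with TGFβ and 8.13 ± 0.762% in the combined group. With these genes and the nuclear transcript Malat1 left out of the counts, the inhibitor's log2 changes were -0.42 for Mdh2 (edgeR adjusted p = 0.00924) and -0.45 for Idh3a (0.0419).

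**Figure D3:**
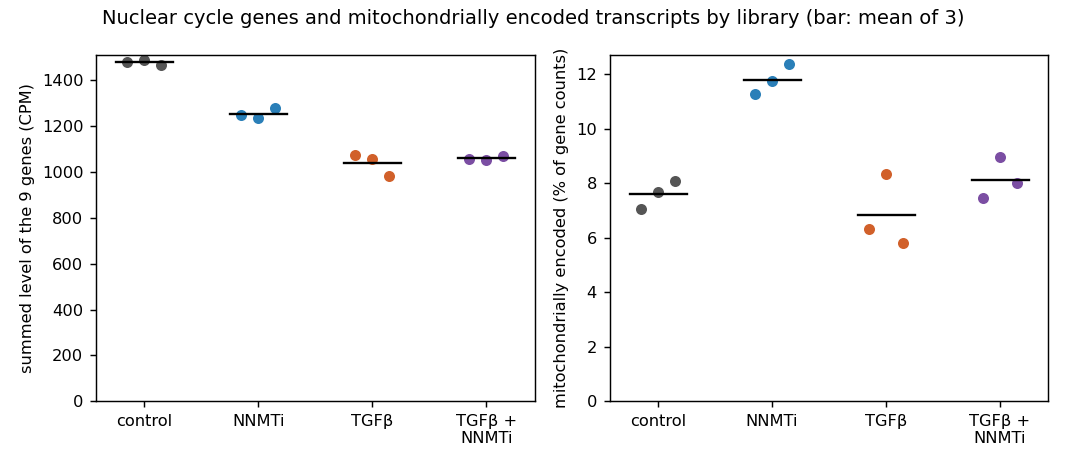
Left, summed CPM of the 9 genes, and right, mitochondrially encoded transcripts as % of gene counts (y axes from 0), in each library by group (x axis). Points are libraries and bars are means of 3. The nuclear cycle genes are highest in control, while the mitochondrially encoded share is highest with NNMTi.

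With TGFβ present, the inhibitor moved no cycle gene past the threshold. In the combined group against TGFβ, 0 of the 9 were called by edgeR, DESeq2 or limma-voom with quality weights, and 2 (Idh2 and Idh3a) had an unadjusted edgeR p below 0.05. Of all tested genes, 10.4% were called, 3.45% up and 6.97% down. The comparisons share groups, so the values that follow stand side by side and are not separate evidence.

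Idh2 was 133, 170 and 145 CPM in the combined group, against 125, 114 and 131 CPM with TGFβ. All combined libraries were higher, although 1 by little, and the log2 change of 0.28 (95% interval 0.06 to 0.50) had an edgeR adjusted p of 0.0969. Idh3a was 57.9, 51.5 and 51.2 CPM in the combined group, against 68.2, 78.1 and 47.4 CPM with TGFβ. The log2 change was -0.30 (95% interval -0.59 to -0.01, edgeR adjusted p = 0.175). Without TGFβ replicate 3, the lowest of its group, it was -0.45 with an adjusted p of 0.0109.

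Suclg2 was 7.87, 6.29 and 6.34 CPM, like Idh2 above all TGFβ libraries (10.1% of tested genes), with a log2 change of 0.30 ± 0.26 that did not pass (edgeR adjusted p = 0.512). Mdh2 was level in these groups, at 467 ± 13.2 and 459 ± 48.3 CPM, and the interval of its log2 change ran from -0.18 to 0.22. The remaining 5 had edgeR adjusted p of 0.699 to 0.847.

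Around the cycle, Pdk1 was higher in the combined group than with TGFβ, 9.91 ± 0.537 against 5.36 ± 0.401 CPM, a 1.84-fold rise (edgeR adjusted p = 0.0036). In a fit of the compared groups only, Pdk1 (0.0617), Slc25a13 (0.0969) and Gpt2 (0.139) were not called. Slc25a13 had a log2 change of -0.59 (0.0112), not called without combined replicate 1 (0.0501) or 3 (0.0515). Gpt2 had 0.53 (0.0308) and was not called without TGFβ replicate 1 or 2 (0.0716 and 0.0882) or combined replicate 1, 2 or 3 (0.0809, 0.0797 and 0.0533). Idh3b, with 48.8, 57.4 and 53.2 CPM in the combined group and 57.2, 72.0 and 70.8 CPM with TGFβ, did not pass (log2 -0.32 ± 0.13, edgeR adjusted p = 0.116).

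TGFβ lowered 4 of the 9 genes in cells that also had the inhibitor. Of all tested genes, 36.3% were called in the combined group against NNMTi, 18.0% up and 18.3% down, and 6 of the 9 had every combined library below every NNMTi library (26.1% of tested genes). Idh2 fell 1.74-fold (log2 -0.79 ± 0.10, edgeR adjusted p = 6.8e-06), Idh3a 1.52-fold (log2 -0.61 ± 0.13, 0.0016) and Idh3g 1.44-fold (log2 -0.53 ± 0.12, 0.00135), so these 3 members were called in both comparisons of TGFβ.

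Suclg2 fell 1.73-fold (log2 -0.79 ± 0.24, edgeR adjusted p = 0.0125), and this call was lost without NNMTi replicate 2 (0.114) or combined replicate 2 (0.0522). With all libraries thinned to the shallowest, neither Suclg2 (0.368) nor Idh3g (0.0653) was called. Mdh2 did not differ detectably, at 467 ± 13.2 CPM in the combined group and 466 ± 29.9 CPM with NNMTi (95% interval of the log2 change -0.20 to 0.20, edgeR adjusted p = 0.987). Ogdh had a log2 change of -0.26 (0.0570), which passed without NNMTi replicate 1 (0.0357) or TGFβ replicate 1, 2 or 3 (0.0483, 0.0199 and 0.0475). Cs, Suclg1 and Fh1 had 0.08, -0.21 and -0.20 (0.559, 0.127 and 0.262).

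Of the other 8 cycle subunits, 3 fell in this comparison, beside 18.3% of all tested genes. These were Sdha (log2 -0.51, edgeR adjusted p = 0.000385), Idh3b (-0.51, 0.00316) and Sdhb (-0.35, 0.0461). Sdhb was not called without control replicate 1, 2 or 3 (0.0592, 0.0640 and 0.0635), NNMTi replicate 1, 2 or 3 (0.0669, 0.105 and 0.121), TGFβ replicate 1 (0.0556) or combined replicate 1 or 3 (0.216 and 0.109).

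Against control, the combined group was lower in 6 of the 9 genes, while 31.8% of all tested genes were called, 16.5% down and 15.3% up. In 8 of the 9, all but Cs, every combined library was below every control library (24.9% of tested genes). Idh3a, at 53.5 ± 3.77 CPM against 111 ± 7.46 CPM, fell 2.08-fold (log2 -1.06 ± 0.13, edgeR adjusted p = 5.96e-06). Idh2 fell 1.82-fold (2.77e-06), Idh3g 1.52-fold (0.000452), Mdh2 1.33-fold (0.00231) and Suclg2 1.81-fold (0.00846), the last not called without control replicate 1 (0.0560) or thinned (0.203).

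Suclg1 fell 1.23-fold (edgeR adjusted p = 0.0355), but the call was lost without any 1 of control replicates 1, 2 and 3 (0.111, 0.0898 and 0.0702), combined replicates 1, 2 and 3 (0.0666, 0.0728 and 0.116) or NNMTi replicate 1 (0.05005). Ogdh (0.0821) and Fh1 (0.0714) were lower in every combined library without passing, and both passed without TGFβ replicate 2 (0.0227 and 0.0283). Cs did not pass (0.664).

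The order of group means differed between members. For Idh3a it was control, NNMTi, TGFβ and combined from high to low, and the last 2 overlapped. For Idh2 it was control, NNMTi, combined and TGFβ, with control and NNMTi overlapping. For Mdh2 the 3 treated groups, at means of 459 to 467 CPM, overlapped one another below control.

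Whether the inhibitor's effect differed with TGFβ was tested as the interaction, the inhibitor's log2 change with TGFβ minus that without it. Of the 9 genes 0 were called by edgeR, 2 (Idh2 and Mdh2) had an unadjusted p below 0.05, and DESeq2 and limma-voom with quality weights each called 1, Mdh2. Of all tested genes, 1.11% were called. For Mdh2 the inhibitor's change was -0.42 without and 0.02 with TGFβ. The difference of 0.44 (95% interval 0.16 to 0.72) had an edgeR adjusted p of 0.159, against 0.0384 in DESeq2, 0.0203 with quality weights and 0.0182 in edgeR without TGFβ replicate 2. For Idh2 the difference was 0.35 ± 0.15 (edgeR adjusted p = 0.385). The differences of the other 7 had edgeR adjusted p of 0.644 to 0.973.

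Ratios within a library do not depend on its scaling. The ratio of Suclg1 to Suclg2 counts was 8.95, 11.9 and 11.1 in control, 16.6, 20.5 and 22.8 with TGFβ. In the combined group it was 13.8, 17.0 and 15.9. All libraries given TGFβ were above control, whereas NNMTi alone, at 14.1, 6.91 and 12.1, spanned the control range. The ratio of Suclg2 to Sucla2, the beta subunits of the GTP- and ATP-forming enzymes, was 0.281, 0.182 and 0.197 in control and 0.120, 0.0963 and 0.0887 with TGFβ. It was 0.156, 0.120 and 0.133 in the combined group, so libraries given TGFβ again did not overlap control.

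The ratio of Idh2 to Idh3a was 2.24, 2.46 and 2.66 in control and 3.05, 3.01 and 3.49 with NNMTi, with no overlap. With TGFβ it was 1.83, 1.46 and 2.76, so that replicate 3, in which Idh3a was lowest, lay above control and the others below. In the combined group it was 2.29, 3.31 and 2.82, overlapping both control and NNMTi. The ratio of Cs to Mdh2 was 0.185, 0.158 and 0.186 in control and 0.197 to 0.240 in the 9 treated libraries, all above control. These ratios are descriptions with no test.

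**Figure D4:**
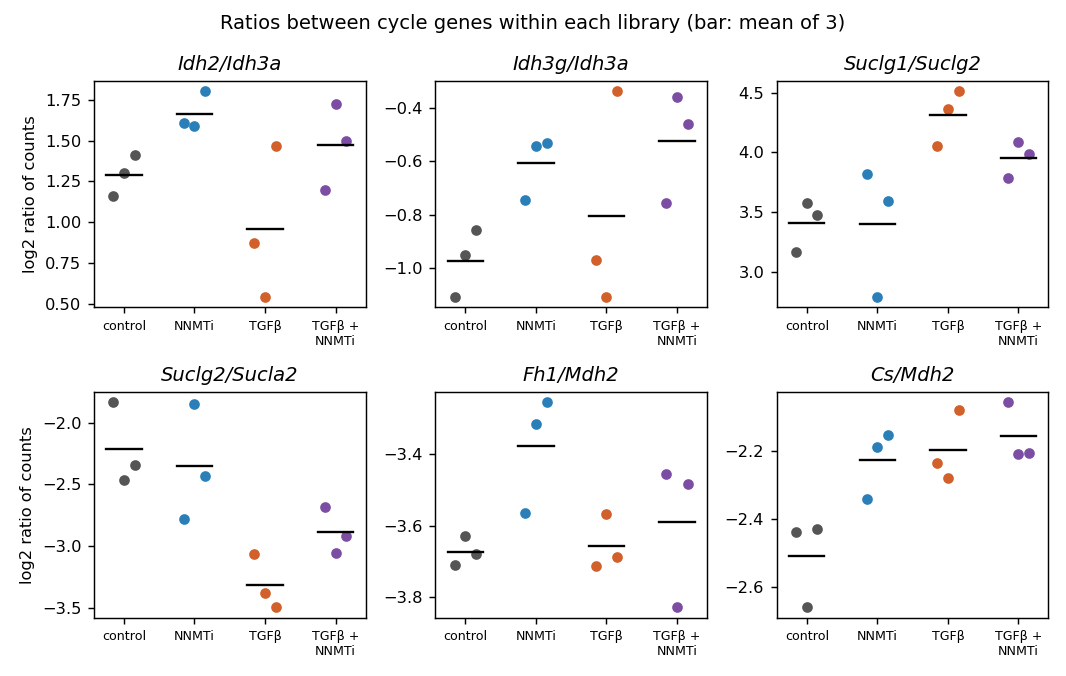
Log2 ratio of counts between pairs of cycle genes within each library (y axes, not from 0), by group (x axis). Points are libraries and bars are means of 3. The ratio of Suclg1 to Suclg2 is above control in all libraries given TGFβ, and that of Cs to Mdh2 in all 9 treated libraries.

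The members differed in how closely they followed their common pattern, the mean of their centred log2 CPM over the 12 libraries. The root mean square distance from it was least for Idh3g (0.107) and greatest for Suclg2 (0.308) and Idh2 (0.290). Of 9103 other genes with at least 10 CPM, the nearest were Gna11 (0.0552), Nfib (0.0797), Pick1 (0.0867), Uqcrc1 (0.0887) and Pja1 (0.0895), where the median gene was at 0.362. Uqcrc1 encodes a core subunit of respiratory complex III, and Gna11 a G protein subunit. The 12 libraries share their groups and scaling, so this likeness is a description of these samples.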

How the data were processed

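Libraries were made from 12 samples (QuantSeq 3′ FWD) and, per the submitters' processing notes, aligned with STAR and counted with HTSeq (versions not given in the sources used here). The deposited values are whole-number counts per gene. The build named is human GRCh38 although the identifiers are mouse, so no positions of counted genes are given, and strand use in counting is not stated. HTSeq's summary rows, of which reads in no feature came to 21.1 to 26.8%, were left out. Identifiers were matched to symbols by annotation.

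After filterByExpr (minimum count 10) and TMM scaling, robust quasi-likelihood F-tests in edgeR 4.0.16, under R 4.3.3 with limma 3.58.1, were run in 1 model of 4 group means. The p-values were adjusted over 13581 genes (Benjamini-Hochberg) and genes called below 0.05. CPM used TMM-scaled library sizes, counted over the tested genes. No replicate pair was a duplicate (chi-square per degree of freedom 3.23 to 40.8). The procedure was tested on simulated data for TGFβ against control. It recovered 8.16% of true 1.35-fold changes, 25.5% of 1.5-fold, 65.3% of 2-fold and 96% of 4-fold changes. Of 101 calls, 5 were false. The simulation drew every group with 1 spread per gene, whereas the biological coefficient of variation was 0.227 with TGFβ and 0.0657 in control. Only 47 to 50 genes per size were changed there. For both reasons these shares need not hold for the data, where 36.5% of genes were called. A small change that did not pass is therefore not shown to be absent.

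All 9 members, the other cycle subunits, up to 4 called genes per related list (at 10 CPM or more, largest change first) and 6 regulators were eligible to be named. Some listed genes are not reported here and enter no count of their list. Members and lists were chosen with earlier results of these data known. Alternatives were DESeq2 1.42.0, other scalings, no filter, other samples in the model, quality weights, thinning, a replicate block and leaving libraries out.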

Additional observations from a re-analysis of the deposited data

How the results depend on the processing

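Of 1179 member values under the alternatives, 1086 kept direction and side of the threshold, 33 newly passed, 26 no longer passed and 34 changed sign. Of 924 values of other named genes, these numbers were 835, 5, 74 and 10. The cause was not tested. Sign changes for NNMTi with control were in Ogdh (0.02), at -0.0030 with RLE scaling, -0.051 with library size alone, -0.0029 in DESeq2, -0.021 thinned and -0.067 to 0.073 leaving out 1 library each, and Suclg2, at 0.035 with quality weights and -0.34 to 0.11. For the combined group with NNMTi, Fh1 was 0.080 thinned, and Mdh2 was -0.044 with library size alone, -0.022 without mitochondrially encoded genes and Malat1, -0.0071 in only the groups compared and -0.015 to 0.068 leaving out 1 each. For the combined group with TGFβ and without TGFβ replicates 2 and 3, Cs was -0.0092, Mdh2 -0.089, Ogdh 0.10 and Suclg1 0.056. With quality weights Mdh2 was -0.022 and Ogdh 0.049, and with library size alone Mdh2 was -0.0085. Leaving out 1 each gave -0.056 to 0.091 for Mdh2, -0.13 to 0.031 for Ogdh and -0.12 to 0.023 for Suclg1. For the interaction, Ogdh was 0.095 without TGFβ replicates 2 and 3, 0.046 with quality weights and -0.15 to 0.033 leaving out 1 each, with -0.0022 to 0.31 for Idh3a and -0.030 to 0.15 for Suclg1. For TGFβ with control, Nrf1 was 0.085 with quality weights, 0.16 thinned and 0.11 without TGFβ replicates 2 and 3. Thinned values were 0.013 for Ppargc1b, 0.068 for Myc and 0.036 for Sucla2. Leaving out 1 library each gave -0.088 to 0.086 for Nrf1, -0.55 to 0.0041 for Myc and -0.12 to 0.0026 for Sucla2.

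Members called moved from 4 to 2 thinned (combined with NNMTi), from 0 to 1 with quality weights and in DESeq2 (interaction), and leaving out 1 library each gave 0 to 2 (NNMTi with control), 0 to 1 (combined with TGFβ) and 0 to 1 (interaction). All genes called with NNMTi (1123) were 2464 without TGFβ replicates 2 and 3, 2931 in only the groups compared, 3064 with quality weights, 690 thinned and 591 to 2179 leaving out 1 each. For the combined group with TGFβ (1416) they were 813 thinned, 408 in only the groups compared and 762 to 1938, and for the interaction (151) 483 with quality weights, 306 with no filter, 96 thinned, 266 in DESeq2, 350 without TGFβ replicates 2 and 3 and 65 to 399. Scaling by library size alone shifted the median of all genes by -0.12 in the combined group with control, where calls split 1404 up and 2899 down (2077 and 2244 with TMM), and 204 up and 1036 down for NNMTi with control (335 and 788).

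With a replicate block, 6, 2, 0, 4, 6 and 0 members were called in the 6 comparisons, as without it. Among other named genes, the block ended the TGFβ calls of Idh1 (adjusted p = 0.0508) and Slc25a10 (0.0531). Deviations of same-numbered samples from their group means gave r from -0.0847 to 0.202 over 18 pairs, 1 over 0.1. Differently numbered pairs ran from -0.167 to 0.170. With 3 libraries per group, these values cannot show whether same-numbered samples share a culture or batch. With the block, all genes called were 4875, 1033, 1306, 4887, 4276 and 119. The depth of TGFβ replicate 3 limits Suclg2, with 14 counts there.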
